A study of Danio rerio with 2 samples.

Results

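Amino acid transporter genes were examined in single-cell RNA-sequencing (scRNA-seq) of zebrafish heads. The set was chosen by name, as the gene symbols that begin with *slc3a*, *slc7a*, *slc36a*, *slc38a* or *slc43a*, together with *slc1a4* and *slc1a5*. It came to 43 of the 37423 genes listed in the deposited counts. The set held 17 *slc7a*, 13 *slc38a*, 6 *slc43a*, 3 *slc3a*, 2 *slc36a* and 2 *slc1a* genes. The study asked how loss of *polr3a*, which encodes the largest subunit of RNA polymerase III, changes gene expression in the head before skeletal defects appear. One group was homozygous for the sa907 allele (*polr3a* sa907/sa907, a nonsense mutation made with ENU), and the other was *polr3a* +/+ siblings. Both came from crosses of *polr3a* sa907/+ parents, one carrying Tg(fli1a:egfp) and the other Tg(sox10:mRFP), and embryos were screened for the reporters. At 3 dpf, 10 heads cut at the pectoral fin were pooled and dissociated for each group, which gave 1 library labelled *polr3a* mutant and 1 labelled wild type. With 1 library per group there was no replicate, so no test between the groups was made, and differences between fish, pools and preparations cannot be told apart from the genotype.

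Most amino acids cannot cross membranes without a carrier. The *slc7a* family contains light chains that exchange amino acids across the plasma membrane only when joined to a heavy chain encoded by *slc3a1* or *slc3a2*, and cationic amino acid carriers that work without one. The *slc38a* family contains sodium-coupled carriers of glutamine, alanine and other small neutral amino acids. *slc1a4* and *slc1a5* encode exchangers of neutral amino acids such as serine, alanine and glutamine. *slc43a1* and *slc43a2* encode carriers of large neutral amino acids, and *slc36a1* encodes a proton-coupled carrier found in part on lysosomes. In mammals, several of these genes are known targets of ATF4, the transcription factor of the integrated stress response. Roles given here for single genes are those of the mammalian proteins. Some genes of the set do not carry amino acids. *slc7a6os* is named for its position on the strand opposite *slc7a6*, which it directly neighbours in the RefSeq annotation of assembly GRCz12tu, and *slc43a3* encodes a nucleobase carrier in mammals.

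After filtering, 23044 cells were kept in the library labelled mutant and 30542 in that labelled wild type. The median depth was 3963.5 unique molecular identifiers (UMIs) per mutant cell and 3382.5 per wild-type cell, and the median mitochondrial share was 3.07% in both libraries. The libraries shared 405 barcodes among those deposited. The targeted gene was not lower in the library labelled mutant. *polr3a* had 16.4 CPM (UMIs per 1000000 UMIs of the library or gate) in the library labelled mutant and 13.7 CPM in that labelled wild type, a log2 ratio of 0.26 (95% counting interval 0.16 to 0.35), so its transcript level does not check the labels. Where values are marked (mutant) and (wild type), they belong to the libraries so labelled. All log2 ratios here are mutant over wild type, and all intervals are exact and cover only the counting of UMIs, not differences among fish. UMIs of 3′ libraries depend on the annotated 3′ end of each gene, so levels were compared between libraries and cell types. Where parts of a summed level are given by gene, they are parts of the UMIs and do not rank the genes by transcript level.

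Over all cells, the amino acid transporter genes tended to be higher in the library labelled mutant. A mean of 1 CPM or more was reached by 39 of the 43 genes. Of these, 21 (53.8%) had a ratio above 1.2, against 20.5% of all 18963 genes at that level, and 2 (5.13%) had a ratio below 0.8, against 4.91% of all genes. The median log2 ratio was 0.28 over the 39 genes and 0.09 over all genes. With a fold of 1.5, 12 of the 39 genes (30.8%) were above it, against 4.97% of all genes, and none was below its inverse. For 20 of the 21 genes above 1.2 the counting interval lay above 0; the exception was *slc7a9*, with 1.13 CPM in the library labelled mutant and 0.88 CPM in that labelled wild type. In pooled cells, fewer cells of a type and less RNA per cell cannot be told apart.

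**Figure D1:**
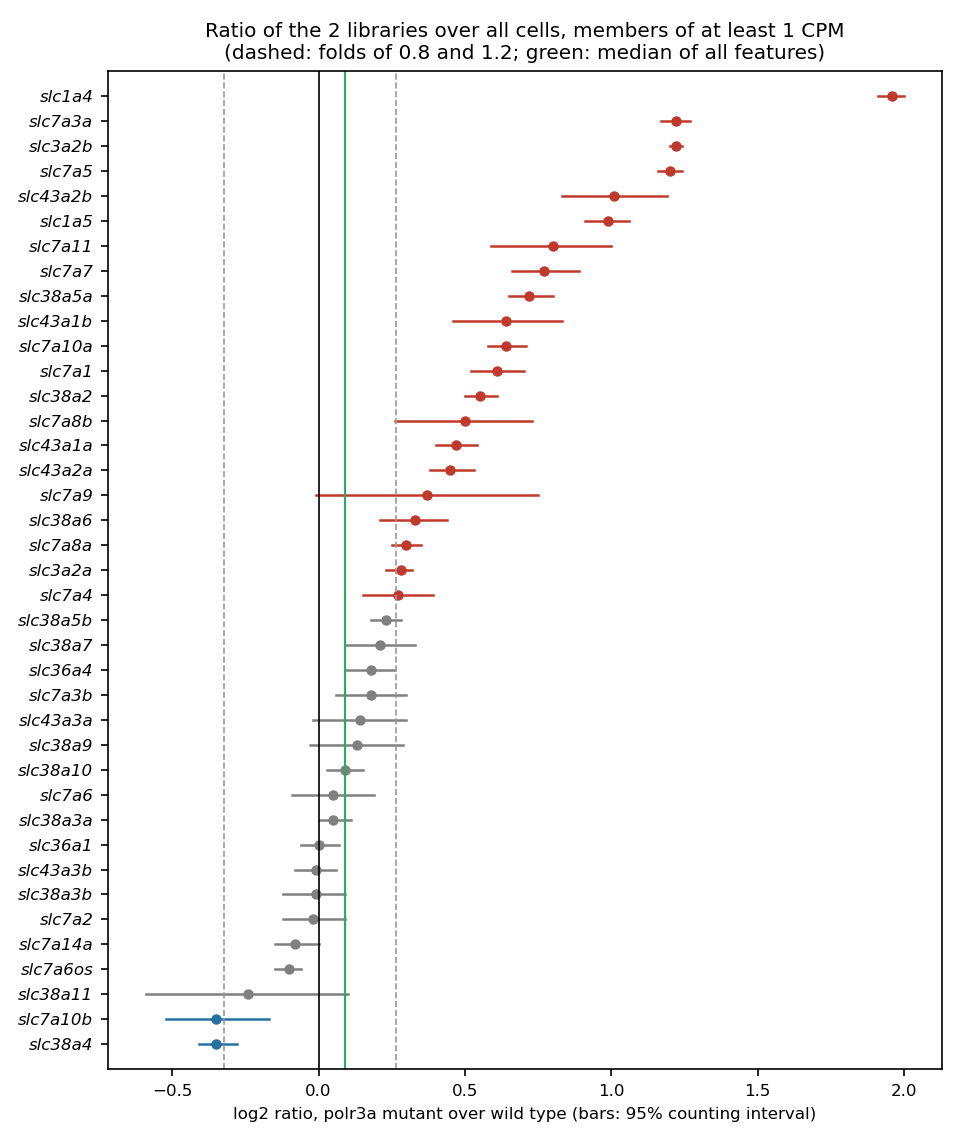
Log2 ratio of the library labelled *polr3a* mutant over that labelled wild type for the 39 genes whose mean reached 1 CPM, with 95% counting intervals. Red points are above a fold of 1.2 (21 genes), blue points below 0.8 (2 genes) and grey points between (16 genes); *slc1a4* stands at 1.96 and the green line marks the median of all genes, 0.09.

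The summed level of all 43 genes was 1631.4 CPM in the library labelled mutant and 1026.9 CPM in that labelled wild type. The difference was concentrated in a few genes. *slc1a4*, *slc3a2b*, *slc7a3a* and *slc7a5*, chosen here as the 4 highest ratios over all cells, made up 48.0% of the summed UMIs of the set in the library labelled mutant and 30.3% in that labelled wild type, and 78.1% of the difference between the sums. By family, the summed log2 ratio was 1.69 for *slc1a*, 1.02 for *slc3a*, 0.59 for *slc7a*, 0.34 for *slc43a*, 0.20 for *slc38a* and 0.07 for *slc36a*. Among the 11738 genes at 10 CPM or more, 19 had a larger log2 ratio than *slc1a4*.

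**Figure D2:**
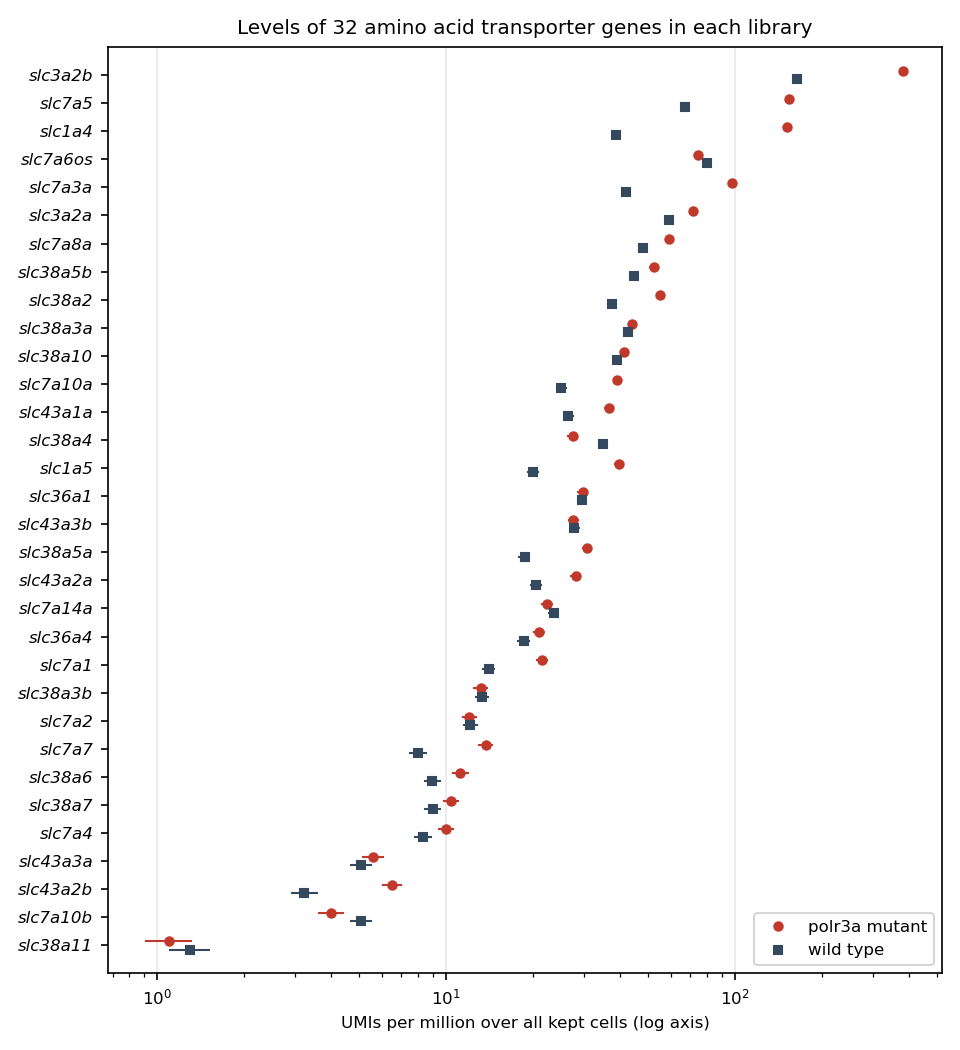
CPM over all kept cells for the 32 genes whose mean reached 10 CPM over all cells or 50 CPM in a gated cell type, on a log axis, with 95% counting intervals. Red circles are the library labelled *polr3a* mutant and dark squares that labelled wild type; they lie far apart for *slc1a4*, *slc3a2b*, *slc7a3a*, *slc7a5* and *slc1a5*, and close together for *slc36a1*, *slc38a3b* and *slc43a3b*.

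To compare cell types, cells were gated on marker genes, with at least 3 markers of the type detected and at least 10 marker UMIs per 10000 UMIs. Gates of 22 cell types held at least 50 cells in each library, between 61 and 6418 cells, and a single type was assigned to 50.7% of cells labelled mutant and 49.3% of cells labelled wild type. Osteoblasts were not among the types with enough cells, with 4 cells in the library labelled mutant and 5 in that labelled wild type. A gene was counted in a gate where its mean was at least 10 CPM with at least 20 UMIs in the 2 libraries together. A gene can pass this filter through 1 library alone, where it is high. This gave 379 pairs of gene and cell type, of which 183 (48.3%) had a ratio above 1.2, against 27.6% of pairs over all genes, and 54 (14.2%) a ratio below 0.8, against 15.3% of pairs over all genes. The median log2 ratio over the pairs was 0.24, against 0.06 over all genes.

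**Figure D3:**
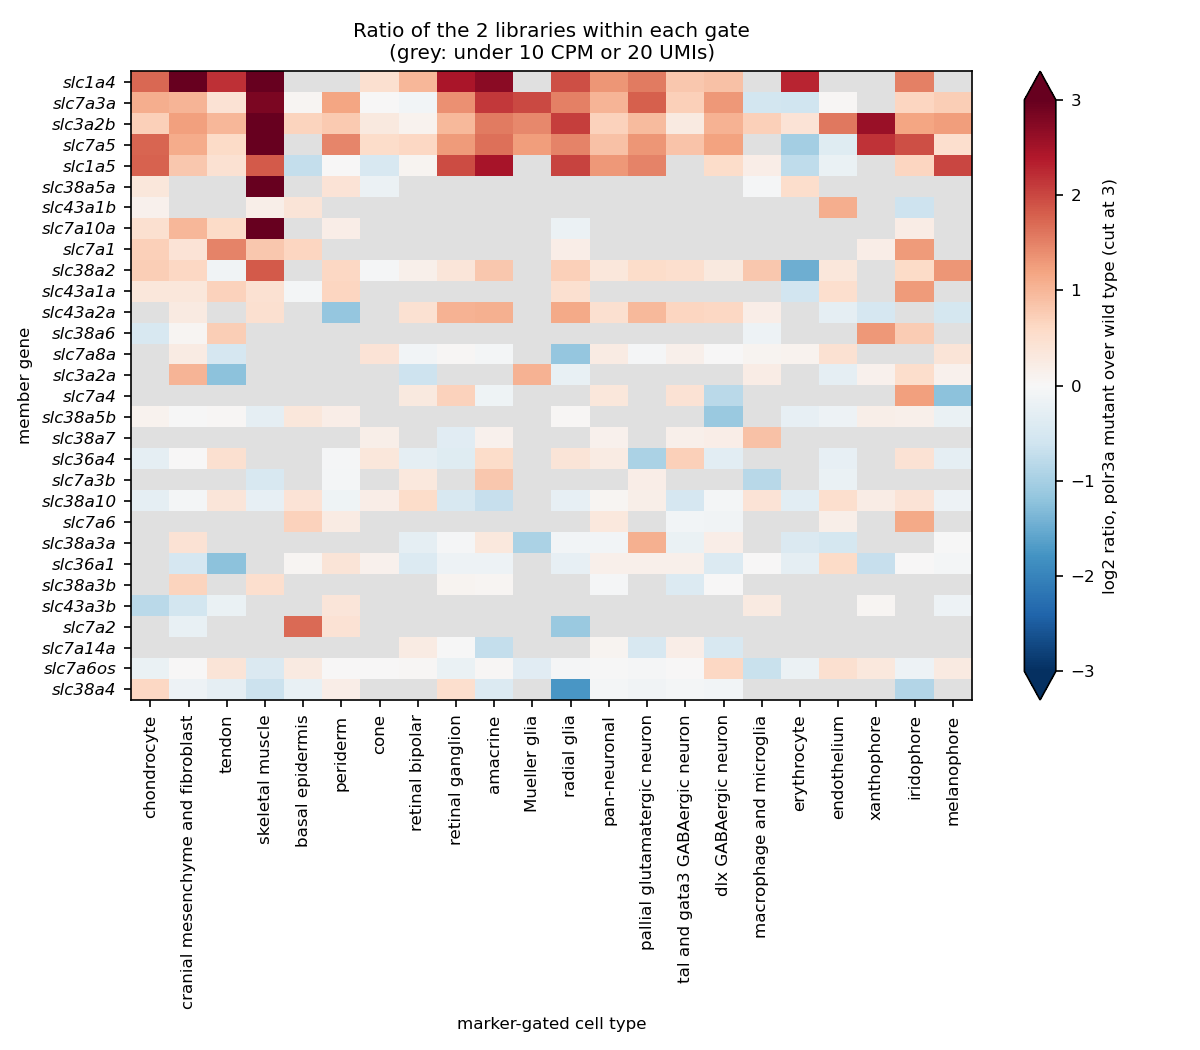
Log2 ratio of the library labelled *polr3a* mutant over that labelled wild type within each gated cell type (columns), for the 30 genes counted in at least 4 types (rows, from the highest to the lowest ratio over all cells). Red is higher and blue lower in the library labelled mutant, and grey marks values under the level; the rows of *slc1a4*, *slc3a2b* and *slc7a5* are red in most columns.

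*slc1a4*, which encodes the neutral amino acid exchanger ASCT1, had the largest ratio of the set. It had 151 CPM in the library labelled mutant and 38.8 CPM in that labelled wild type (log2 ratio 1.96, interval 1.91 to 2.0). Among the gates it was counted in 15 cell types and was above 1.2 in all 15, with log2 ratios of 0.48 to 4.06 and every interval above 0. In skeletal muscle *slc1a4* had 390 CPM in the library labelled mutant, against 23.4 CPM in that labelled wild type. In radial glia the levels were 317 (mutant) and 82.7 (wild type) CPM, in amacrine cells 347 (mutant) and 53.6 (wild type) CPM, and in cranial mesenchyme and fibroblasts 82.1 (mutant) and 9.86 (wild type) CPM. In cranial mesenchyme and fibroblasts *slc1a4* reached 10 CPM in the library labelled mutant alone, and had to be higher there to be counted. Any other type among the 15 that passed the filter in this way had to be higher for the same reason. The highest levels in the wild-type-labelled library were in neurons, with 114 CPM in pallial glutamatergic neurons and 99.7 CPM in dlx GABAergic neurons, whereas in the library labelled mutant skeletal muscle was highest. The smallest log2 ratio was in cones, with 44.7 CPM in the library labelled mutant and 31.9 CPM in that labelled wild type. In the other 7 types *slc1a4* did not reach both 10 CPM and 20 UMIs. Of these, periderm had 44 (mutant) and 14 (wild type) UMIs (log2 ratio 2.28, interval 1.39 to 3.27), and Mueller glia 14 (mutant) and 3 (wild type) UMIs (log2 ratio 1.87, interval 0.03 to 4.31). Xanthophores had 13 (mutant) and 1 (wild type) UMIs, melanophores 8 (mutant) and 1 (wild type) UMIs, and endothelium 10 (mutant) and 0 (wild type) UMIs. Basal epidermis had 8 (mutant) and 11 (wild type) UMIs, and macrophages and microglia 2 UMIs in each library, and the intervals of these last 2 types included 0.

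Depth per cell differed between the libraries, so shares of cells with an *slc1a4* UMI were compared at 1000 UMIs drawn from each cell. Shallower cells, 1594 in the library labelled mutant and 2383 in that labelled wild type, did not enter. Over all cells, 10.0% of thinned mutant cells (Clopper-Pearson interval 9.63% to 10.4%) and 3.45% of thinned wild-type cells (3.24% to 3.67%) had a UMI. Without thinning the shares were 25.1% (mutant) and 12% (wild type). In skeletal muscle the thinned shares were 27.8% (21.9% to 34.4%) of 212 mutant cells and 3.39% (1.25% to 7.23%) of 177 wild-type cells, and without thinning 64.8% (mutant) and 11.4% (wild type). For the share that free RNA can give, basal epidermis was used, a type with little *slc1a4* in these same counts. It had a UMI in 0 of 112 thinned mutant cells and 0 of 150 thinned wild-type cells, with Clopper-Pearson upper limits of 3.24% (mutant) and 2.43% (wild type). Without thinning the shares were 7.14% (mutant) and 6.67% (wild type), at median depths of 9188 (mutant) and 8565 (wild type) UMIs, against 8470 (mutant) and 6808 (wild type) UMIs in skeletal muscle. The wild-type share in skeletal muscle therefore overlapped this background within counting error, and the share in the library labelled mutant lay above it.

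*slc1a5*, which encodes the glutamine exchanger ASCT2, had 39.6 CPM in the library labelled mutant and 20 CPM in that labelled wild type (log2 ratio 0.99, interval 0.91 to 1.06). The difference was not shared by all types. Of 19 types, 12 had a ratio above 1.2 and 3 a ratio below 0.8. The level was 35.6 (mutant) and 8.77 (wild type) CPM in radial glia, 33.9 (mutant) and 6.07 (wild type) CPM in amacrine cells and 50.3 (mutant) and 14.6 (wild type) CPM in chondrocytes. In radial glia and amacrine cells the level reached 10 CPM in the library labelled mutant alone, and had to be higher there to be counted. The same holds for any other of the 12 types that passed the filter in this way. In periderm, where the wild-type level was highest, it was 81.4 (mutant) and 80.2 (wild type) CPM, and in basal epidermis 28.5 CPM in the library labelled mutant and 47.0 CPM in that labelled wild type (log2 ratio -0.72, interval -1.39 to -0.08).

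The heavy chain of the CD98 heterodimers, which brings the light chains to the plasma membrane, is encoded by a pair of zebrafish genes, and the difference was found mostly in one of them. *slc3a2b* had 381 CPM in the library labelled mutant and 164 CPM in that labelled wild type (log2 ratio 1.22, interval 1.2 to 1.24). It was counted in all 22 types and above 1.2 in 20, each of the 20 with an interval above 0, while the other 2, retinal bipolar cells and tal and gata3 GABAergic neurons, had log2 ratios of 0.10 and 0.26. In radial glia *slc3a2b* had 844 CPM in the library labelled mutant and 200 CPM in that labelled wild type (log2 ratio 2.08, interval 1.99 to 2.17), and in skeletal muscle 258 (mutant) and 24.9 (wild type) CPM. Chondrocytes, where the wild-type level was highest, had 585 CPM in the library labelled mutant and 359 CPM in that labelled wild type (log2 ratio 0.71, interval 0.60 to 0.81).

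*slc3a2a* had 71.8 CPM in the library labelled mutant and 59.2 CPM in that labelled wild type (log2 ratio 0.28, interval 0.23 to 0.32). It was found at high levels in a few types and was counted in 10, of which 3 had a ratio above 1.2, all 3 with an interval above 0. Among these, cranial mesenchyme and fibroblasts had 34.3 (mutant) and 17.0 (wild type) CPM (log2 ratio 1.01, interval 0.68 to 1.35). In 2 types, tendon (log2 ratio -1.24) and retinal bipolar cells (-0.61), *slc3a2a* was below 0.8, with intervals that included 0. Macrophages and microglia had 1201.6 (mutant) and 1033.2 (wild type) CPM, melanophores 751 (mutant) and 688 (wild type) CPM, and radial glia 377 CPM in the library labelled mutant and 438 CPM in that labelled wild type (log2 ratio -0.22, interval -0.30 to -0.14). In radial glia the pair thus differed in direction, with both intervals apart from 0, although the ratio of *slc3a2a* did not reach 0.8. In chondrocytes and most neurons *slc3a2a* was low, with 3.08 (mutant) and 2.04 (wild type) CPM in chondrocytes. When the wild-type UMI shares of the gated types were applied to both libraries, the all-cell log2 ratio of *slc3a2a* was 0.15, below the fold of 1.2. That of *slc3a2b* was 1.21.

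**Figure D4:**
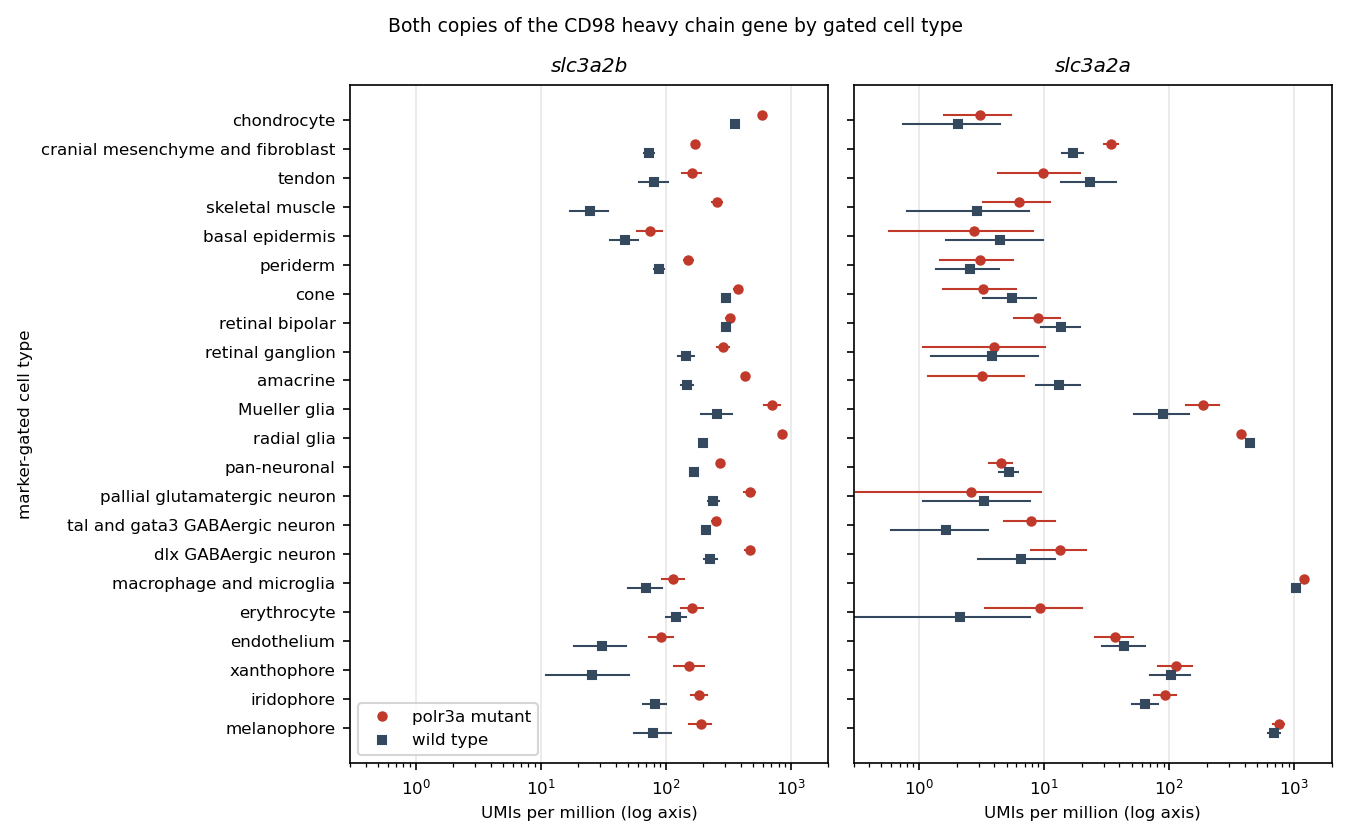
CPM of *slc3a2b* (left) and *slc3a2a* (right) in each gated cell type, on a log axis with 95% counting intervals. Red circles are the library labelled *polr3a* mutant and dark squares that labelled wild type; for *slc3a2b* the circles lie to the right of the squares in all 22 types, and *slc3a2a* is highest in macrophages and microglia, melanophores and radial glia in both libraries.

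Of the light chains, *slc7a5*, which encodes LAT1, a carrier of leucine and other large neutral amino acids, had the largest ratio. It had 154 CPM in the library labelled mutant and 67.0 CPM in that labelled wild type (log2 ratio 1.2, interval 1.16 to 1.24). It was above 1.2 in 18 of 20 types, of which 17 had an interval above 0, and below 0.8 in the other 2. In skeletal muscle *slc7a5* reached 10 CPM in the library labelled mutant alone, and had to be higher there to be counted. Any other type among the 18 that passed the filter in this way had to be higher for the same reason. Radial glia had 391 (mutant) and 140 (wild type) CPM, skeletal muscle 91.7 (mutant) and 8.05 (wild type) CPM, and chondrocytes 42.3 (mutant) and 12.6 (wild type) CPM. The highest wild-type level was in endothelium, where LAT1 carries amino acids across the blood-brain barrier. There *slc7a5* had 362 CPM in the library labelled mutant and 466 CPM in that labelled wild type (log2 ratio -0.37, interval -0.60 to -0.13). The markers of cycling cells were lower in this gate and also in those of radial glia, skeletal muscle and chondrocytes. Their part in the ratios was not tested. In erythrocytes *slc7a5* had 24.6 (mutant) and 50.1 (wild type) CPM (log2 ratio -1.03, interval -1.95 to -0.18).

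Other light chains were found in fewer types. *slc7a7*, a light chain that exchanges cationic for neutral amino acids, was almost confined to macrophages and microglia among the gates, which held 86.8% of its gated UMIs in the wild-type-labelled library. Over all cells it had 13.7 CPM in the library labelled mutant and 8 CPM in that labelled wild type (log2 ratio 0.77, interval 0.66 to 0.89). Within macrophages and microglia it had 686 (mutant) and 607 (wild type) CPM (log2 ratio 0.18, interval -0.01 to 0.36). This gate held 0.352% of all cells labelled mutant and 0.216% of those labelled wild type. After thinning, 50.6% (39.3% to 61.9%) of 81 mutant cells and 53.0% (40.3% to 65.4%) of 66 wild-type cells of the gate had an *slc7a7* UMI. Without thinning the shares were 97.5% (mutant) and 97.0% (wild type). In the pan-neuronal gate, which should lack it, the thinned shares were 0 of 4297 mutant cells (Clopper-Pearson upper limit 0.0858%) and 0.0487% of 6164 wild-type cells. Median depths there were 4076.5 (mutant) and 3624.5 (wild type) UMIs, against 11683 (mutant) and 9237.5 (wild type) UMIs in the macrophage and microglia gate.

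*slc7a8a*, which encodes a copy of LAT2, had 59.2 CPM in the library labelled mutant and 48.0 CPM in that labelled wild type over all cells, but in radial glia it was lower in the library labelled mutant, with 21.6 CPM against 47.9 CPM in wild type (log2 ratio -1.15, interval -1.46 to -0.85). In macrophages and microglia it had 436 (mutant) and 413 (wild type) CPM and in retinal bipolar cells 154 (mutant) and 164 (wild type) CPM. *slc7a11*, which encodes the cystine carrier xCT, was low over all cells, with 4.49 (mutant) and 2.59 (wild type) CPM. It was counted in macrophages and microglia, with 55 CPM (50 UMIs) in the library labelled mutant and 11.3 CPM (7 UMIs) in that labelled wild type (log2 ratio 2.28, interval 1.13 to 3.67), and was chosen for mention after its values were seen. It was under the level in the other types, where it differed in both directions. In cranial mesenchyme and fibroblasts it had 12 (mutant) and 63 (wild type) UMIs (log2 ratio -2.64, interval -3.67 to -1.74), and in radial glia 85 (mutant) and 20 (wild type) UMIs (log2 ratio 2.21, interval 1.5 to 3.0). *slc7a6*, whose light chain is related to that of *slc7a7*, had 6.84 (mutant) and 6.61 (wild type) CPM over all cells. *slc3a1*, the heavy chain of the cystine carrier of kidney and gut, stayed under a mean of 1 CPM, with 1.08 (mutant) and 0.654 (wild type) CPM.

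The *slc7a10* pair encodes copies of the Asc-1 light chain, which carries small neutral amino acids such as glycine and serine. *slc7a10a* had 39.1 CPM in the library labelled mutant and 25 CPM in that labelled wild type (log2 ratio 0.64, interval 0.58 to 0.71). Chondrocytes had 209 (mutant) and 150 (wild type) CPM (log2 ratio 0.48, interval 0.31 to 0.65), skeletal muscle 50.1 (mutant) and 4.39 (wild type) CPM, and radial glia, where it was highest, 210 (mutant) and 237 (wild type) CPM. *slc7a10b* was found in radial glia, which held 94.4% of its gated UMIs in the wild-type-labelled library, and was lower there in the library labelled mutant, with 49.8 CPM against 81.2 CPM in wild type (log2 ratio -0.70, interval -0.92 to -0.50). It was one of the 2 genes of the set below 0.8 over all cells.

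Among the cationic amino acid carriers, *slc7a3a*, a CAT3 copy that imports arginine and lysine, had 97.6 CPM in the library labelled mutant and 41.9 CPM in that labelled wild type (log2 ratio 1.22, interval 1.17 to 1.27). It was above 1.2 in 15 of 21 types, 12 of them with an interval above 0, and below 0.8 in 2, macrophages and microglia (log2 ratio -0.55) and erythrocytes (-0.60), both with intervals that included 0. Radial glia had 197 (mutant) and 69.3 (wild type) CPM, skeletal muscle 140 (mutant) and 19.8 (wild type) CPM, and amacrine cells 94.8 (mutant) and 21.8 (wild type) CPM. Cones and endothelium, with the highest wild-type levels, showed nearly equal values, with 115 CPM in both libraries in cones and 95.8 (mutant) and 93.8 (wild type) CPM in endothelium. Its paralogue *slc7a3b* had 10.4 CPM in the library labelled mutant and 9.15 CPM in that labelled wild type (log2 ratio 0.18). *slc7a1*, annotated as the carrier CAT1, had 21.4 (mutant) and 14.1 (wild type) CPM (log2 ratio 0.61, interval 0.52 to 0.70) and was highest in chondrocytes, with 126 CPM in the library labelled mutant and 77.0 CPM in that labelled wild type (log2 ratio 0.71, interval 0.48 to 0.94).

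*slc7a2*, which encodes CAT2, was nearly equal over all cells, with a log2 ratio of -0.02 (interval -0.12 to 0.09), but not within types. In radial glia it had 15.2 CPM in the library labelled mutant and 33.1 CPM in that labelled wild type (log2 ratio -1.12, interval -1.49 to -0.75), and in basal epidermis 31.3 (mutant) and 9.69 (wild type) CPM (log2 ratio 1.69, interval 0.73 to 2.74). In basal epidermis it reached 10 CPM in the library labelled mutant alone. *slc7a14a* and *slc7a4*, whose products are related to these carriers, were highest in retinal bipolar cells. *slc7a14a* had 111 (mutant) and 93.3 (wild type) CPM there and 22.4 (mutant) and 23.6 (wild type) CPM over all cells, and *slc7a4* 57.0 (mutant) and 46.6 (wild type) CPM there and 10.0 (mutant) and 8.33 (wild type) CPM over all cells. *slc7a6os*, which is not a carrier, had 74.4 CPM in the library labelled mutant and 79.9 CPM in that labelled wild type (log2 ratio -0.10, interval -0.15 to -0.06) and was counted in all 22 types, with 5 above 1.2 and 3 below 0.8.

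Of the 11 genes of the *slc38a* family at 1 CPM or more, 3 were above 1.2 and 1 below 0.8, shares near those of all genes (20.5% and 4.91%). *slc38a2*, which encodes SNAT2, a carrier induced by amino acid shortage in mammalian cells, had 55.1 CPM in the library labelled mutant and 37.6 CPM in that labelled wild type (log2 ratio 0.55, interval 0.50 to 0.61). It was above 1.2 in 15 of 19 types, among them skeletal muscle, with 68.0 (mutant) and 19 (wild type) CPM. In cones, the type with the highest wild-type level, it had 70.3 (mutant) and 72.1 (wild type) CPM. *slc38a5a*, which encodes a copy of SNAT5, had 30.8 (mutant) and 18.7 (wild type) CPM over all cells (log2 ratio 0.72, interval 0.65 to 0.80) and was highest in chondrocytes, with 321 CPM in the library labelled mutant and 253 CPM in that labelled wild type (log2 ratio 0.34, interval 0.21 to 0.48). The chondrocyte gate held 2.66% of all cells labelled mutant and 1.91% of those labelled wild type. With the wild-type UMI shares of the gated types in both libraries, the all-cell log2 ratio of *slc38a5a* was 0.54.

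*slc38a4*, which encodes SNAT4, was the other gene of the set below 0.8 over all cells, with 27.4 CPM in the library labelled mutant and 34.9 CPM in that labelled wild type (log2 ratio -0.35, interval -0.41 to -0.28). The difference was largest in radial glia, with 23.4 (mutant) and 78.8 (wild type) CPM (log2 ratio -1.75, interval -2.03 to -1.47). In the pan-neuronal gate it had 24.2 (mutant) and 25.1 (wild type) CPM. *slc38a6* had 11.2 CPM in the library labelled mutant and 8.96 CPM in that labelled wild type (log2 ratio 0.33, interval 0.21 to 0.44), and was highest in macrophages and microglia in the wild-type-labelled library.

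The remaining *slc38a* genes at 1 CPM or more lay between the folds over all cells. *slc38a5b*, the second SNAT5 copy, had 52.3 (mutant) and 44.6 (wild type) CPM (log2 ratio 0.23), and was highest in the pigment cells, with 315 (mutant) and 277 (wild type) CPM in xanthophores, 252 (mutant) and 227 (wild type) CPM in iridophores and 216 (mutant) and 248 (wild type) CPM in melanophores. The highest wild-type levels of its paralogue *slc38a5a* were in chondrocytes, cones and periderm. Periderm and chondrocytes also had *slc38a5b*, with 176 (mutant) and 154 (wild type) CPM in periderm and 78.5 (mutant) and 73.3 (wild type) CPM in chondrocytes. Cones had 3.24 (mutant) and 3.65 (wild type) CPM of *slc38a5b*. *slc38a3a*, which encodes a copy of the glutamine carrier SNAT3, had 44.1 (mutant) and 42.5 (wild type) CPM, with 120 (mutant) and 128 (wild type) CPM in radial glia and 85.0 (mutant) and 123 (wild type) CPM in endothelium, and *slc38a3b* had 13.2 (mutant) and 13.3 (wild type) CPM, with 17.0 (mutant) and 10.7 (wild type) CPM in cranial mesenchyme and fibroblasts (log2 ratio 0.67, interval 0.23 to 1.12). *slc38a10* had 41.4 (mutant) and 38.9 (wild type) CPM and was highest in chondrocytes, with 165 CPM in the library labelled mutant and 202 CPM in that labelled wild type (log2 ratio -0.28, interval -0.45 to -0.12). *slc38a11* was found at 10 CPM or more in melanophores alone among the gates, with 57.1 (mutant) and 81.8 (wild type) CPM, an interval that included 0. *slc38a7*, a lysosomal glutamine carrier, had 10.4 (mutant) and 8.99 (wild type) CPM over all cells and 86.8 CPM in the library labelled mutant against 46.8 CPM in that labelled wild type in macrophages and microglia (log2 ratio 0.89, interval 0.26 to 1.56).

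The *slc43a* genes were found in different types. *slc43a1a*, which encodes a copy of LAT3, had 36.6 CPM in the library labelled mutant and 26.5 CPM in that labelled wild type (log2 ratio 0.47, interval 0.40 to 0.54). Its highest wild-type levels were in 3 types, with 149 (mutant) and 117 (wild type) CPM in chondrocytes, 126 (mutant) and 78.2 (wild type) CPM in tendon and 87.3 (mutant) and 68.7 (wild type) CPM in cranial mesenchyme and fibroblasts. Skeletal muscle had 70.7 (mutant) and 51.2 (wild type) CPM and periderm 54.6 (mutant) and 35.1 (wild type) CPM. *slc43a2a*, a copy of LAT4, had 28.1 (mutant) and 20.5 (wild type) CPM (log2 ratio 0.45, interval 0.38 to 0.53). It was higher in the library labelled mutant in radial glia, with 34.7 against 15.8 CPM in wild type, and lower in melanophores, with 157 against 227 CPM in wild type, and in periderm, with 7.63 against 16.9 CPM in wild type. In periderm it reached 10 CPM in the wild-type-labelled library alone. *slc43a2b* was concentrated in macrophages and microglia, with 174 (mutant) and 168 (wild type) CPM, and had 6.51 (mutant) and 3.23 (wild type) CPM over all cells (log2 ratio 1.01, interval 0.83 to 1.19). In Mueller glia it had 26 UMIs in the library labelled mutant and 2 UMIs in that labelled wild type (log2 ratio 3.35, interval 1.35 to 6.47), in gates of 89 (mutant) and 61 (wild type) cells.

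*slc43a3b*, a copy of the nucleobase carrier gene, was nearly equal over all cells (27.6 (mutant) and 27.8 (wild type) CPM) but lower in the library labelled mutant in chondrocytes, with 52.6 CPM against 92.3 CPM in wild type (log2 ratio -0.81, interval -1.08 to -0.54), and in cranial mesenchyme and fibroblasts, with 67.4 CPM against 99.2 CPM in wild type (log2 ratio -0.56, interval -0.73 to -0.39). Its paralogue *slc43a3a* was found in cones, with 81.3 (mutant) and 93.1 (wild type) CPM, and in erythrocytes, with 75.3 (mutant) and 59.7 (wild type) CPM. Of the *slc36a* genes, *slc36a1*, which encodes the lysosomal carrier PAT1, had 29.7 (mutant) and 29.6 (wild type) CPM (log2 ratio 0.00) and was highest in macrophages and microglia, with 211 (mutant) and 210 (wild type) CPM, and in iridophores, with 167 (mutant) and 165 (wild type) CPM. *slc36a4* had 21.0 CPM in the library labelled mutant and 18.6 CPM in that labelled wild type (log2 ratio 0.18), and was above 1.2 in 6 and below 0.8 in 2 of 16 types.

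The other 11 genes of the set, of which *slc3a1*, *slc7a3b*, *slc7a6*, *slc7a9* and *slc7a11* are given above, had means of 0.178 to 9.77 CPM over all cells and log2 ratios of -0.40 to 0.80. These 11 include the lysosomal arginine sensor *slc38a9*, with 5.49 (mutant) and 5.01 (wild type) CPM, the LAT2 copy *slc7a8b*, with 3.05 (mutant) and 2.17 (wild type) CPM, and the LAT3 copy *slc43a1b*, with 5.31 (mutant) and 3.40 (wild type) CPM. The remaining 3, *slc38a8a*, *slc38a8b* and *slc7a14b*, were under 1 CPM.

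**Figure D5:**
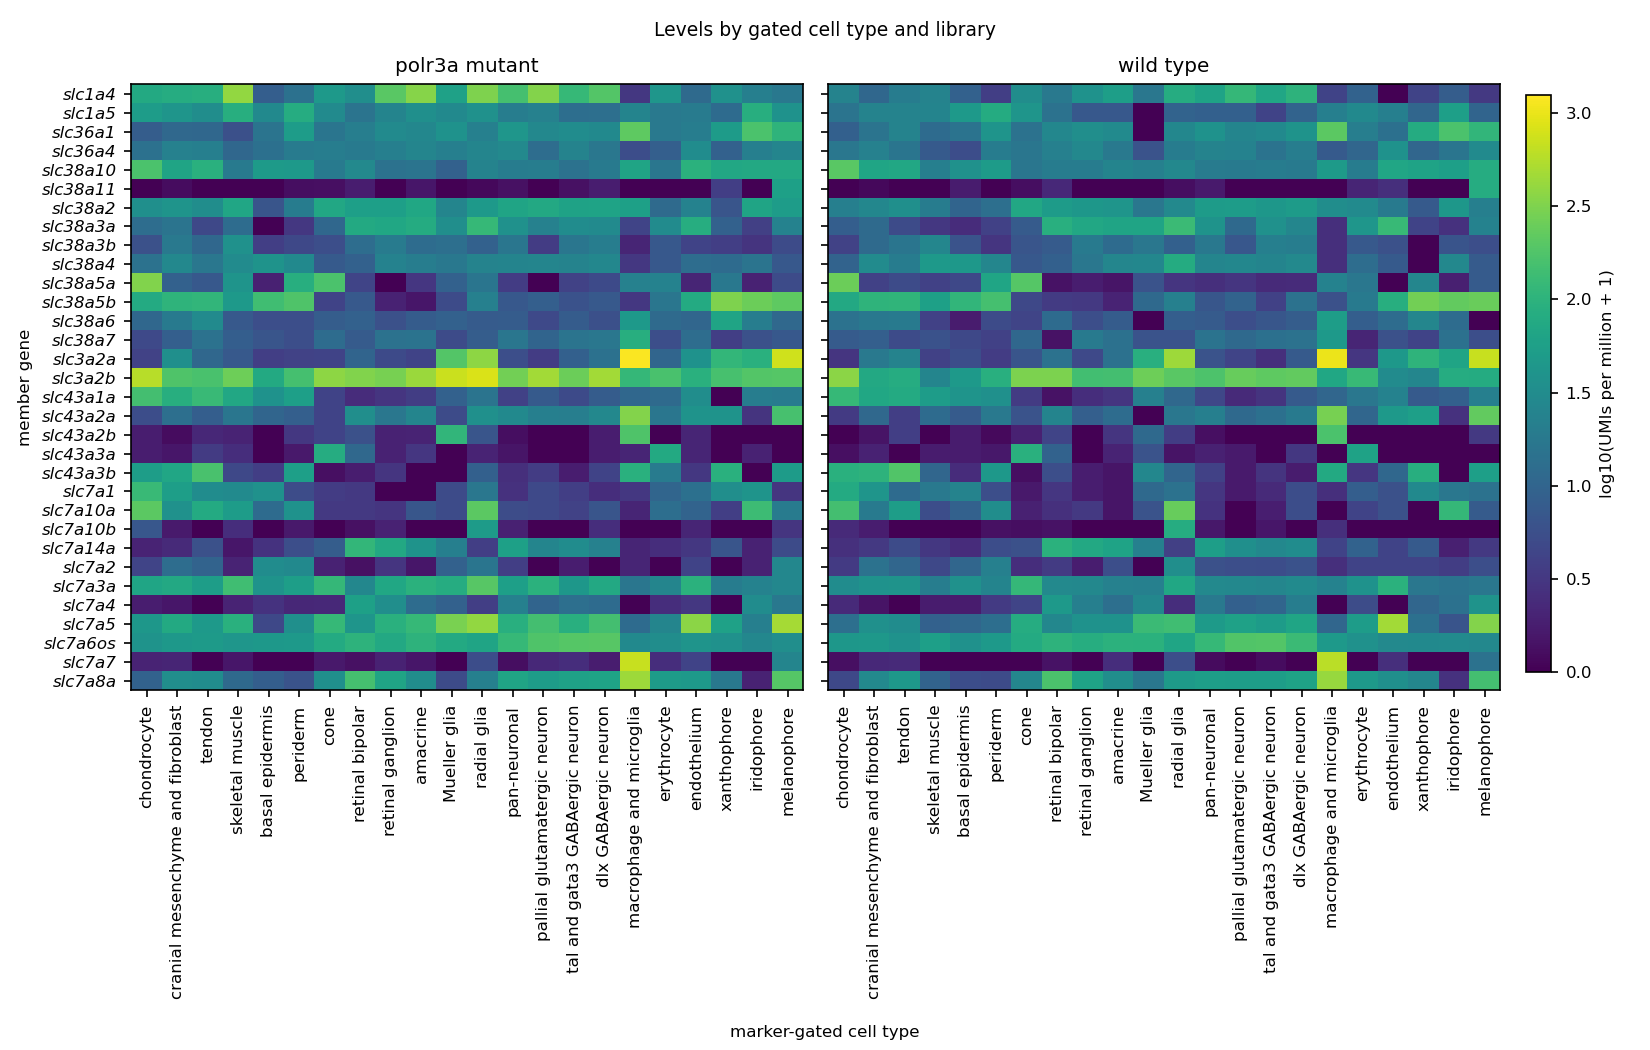
Levels of the 32 named genes (rows) in the 22 gated cell types (columns) in the library labelled *polr3a* mutant (left) and that labelled wild type (right), as log10 of CPM plus 1. *slc7a7* and *slc43a2b* stand out in macrophages and microglia, *slc7a10b* in radial glia, *slc38a11* in melanophores, *slc43a3a* in cones and erythrocytes, in both libraries.

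Duplicated genes of the set overlapped in part in their cell types. *slc7a10a* and *slc7a10b* were both highest in radial glia, while *slc7a10a* was also found in chondrocytes and iridophores. *slc43a2a* and *slc43a2b* were both highest in macrophages and microglia, while *slc43a2a* was also found in melanophores and *slc43a2b* had 2.27 CPM or less in the pigment cells of the wild-type-labelled library. *slc43a3a* was highest in cones and *slc43a3b* in tendon, in both libraries. Macrophages and microglia had the highest summed level of the whole set, 3717.9 CPM in the library labelled mutant and 3244.9 CPM in that labelled wild type, followed in the library labelled mutant by radial glia with 2971.8 (mutant) and 1843.6 (wild type) CPM, melanophores with 2652.5 (mutant) and 2372.2 (wild type) CPM and chondrocytes with 2127.3 (mutant) and 1587.9 (wild type) CPM. The UMIs behind the sum came from different genes. The largest parts were of *slc3a2a* and *slc7a7* in macrophages, of *slc3a2a* and *slc7a5* in melanophores, and of *slc3a2b* in radial glia of the library labelled mutant, against *slc3a2a* in radial glia of that labelled wild type.

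Skeletal muscle had the largest ratio of summed levels, with 1540.2 CPM in the library labelled mutant and 525 CPM in that labelled wild type, a ratio of 2.94. Of 18 genes counted, 12 were above 1.2 and 3 below 0.8, against 38.4% and 18.6% of all genes in this gate, and the median log2 ratio was 0.66, against 0.12 over all genes. The log2 ratios of *slc1a4*, *slc38a5a*, *slc7a5*, *slc7a10a* and *slc3a2b* lay between 3.37 and 4.06, and *slc7a3a*, *slc1a5* and *slc38a2* lay between 1.84 and 2.82. Of the 18 genes, 3 reached 10 CPM in the library labelled mutant alone and had to differ for that reason. They were *slc38a5a*, with 74 (mutant) and 4 (wild type) UMIs, *slc7a10a*, with 95 (mutant) and 6 (wild type) UMIs, and *slc7a5*, with 174 (mutant) and 11 (wild type) UMIs. Of the other 15 genes, which reached 10 CPM in both libraries, 9 were above 1.2 and 3 below 0.8. The share of all genes under this stricter filter was not computed, here or in the types below. Counts at 10 CPM in both libraries therefore have no background beside them. The muscle gates held 216 (mutant) and 184 (wild type) cells. The 6 muscle markers themselves summed to 32591.1 CPM in the library labelled mutant and 49823.1 CPM in that labelled wild type, with all 6 lower, and the part of this in the ratios was not tested. Markers of chondrocytes, where *slc38a5a* and *slc7a10a* are also high, had 23 (mutant) and 27 (wild type) UMIs in the muscle gate, with 2 (mutant) and 1 (wild type) of 4 at 0. Markers of radial glia, where *slc7a10a* is highest, summed to 516 (mutant) and 313 (wild type) CPM in the muscle gate, with none of 4 at 0. In the library labelled mutant, *slc1a4*, *slc3a2b* and *slc7a5* are also high in radial glia. Markers of Mueller glia summed to 226 (mutant) and 49 (wild type) CPM with none of 4 at 0. Those of heart muscle summed to 307 (mutant) and 117 (wild type) CPM with 2 (mutant) and 3 (wild type) of 5 at 0. The 5 markers of cycling cells summed to 95.4 (mutant) and 268 (wild type) CPM, with all 5 lower in the library labelled mutant and none at 0. The part of any of these marker lists in the ratios was not tested.

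In cranial mesenchyme and fibroblasts, 13 of 23 genes were above 1.2 and 2 below 0.8, against 19.4% and 5.76% of all genes, with a median log2 ratio of 0.35 against 0.07. Of the 22 at 10 CPM in both libraries, 12 were above 1.2 and 2 below 0.8. In this gate the 5 periderm markers summed to 30.6 (mutant) and 76.5 (wild type) CPM, with all 5 lower, and the 4 xanthophore markers to 25.9 (mutant) and 7.16 (wild type) CPM, with 3 higher. The 5 cycling markers summed to 738 (mutant) and 955 (wild type) CPM, with all 5 lower, and none of these markers was at 0. Their part in the ratios was not tested. In chondrocytes, the cells of the craniofacial cartilage, 11 of 18 were above 1.2 and 2 below 0.8, against 29.9% and 11.8% of all genes, with a median of 0.41 against 0.09. Of the 17 at 10 CPM in both libraries, 10 were above 1.2 and 2 below 0.8. For neither of these 2 types was the share of all genes at 10 CPM in both libraries computed. *slc1a5*, *slc7a5* and *slc1a4* had the largest ratios in chondrocytes, with log2 ratios of 1.78, 1.75 and 1.72, and *slc43a3b* the smallest. The 4 chondrocyte markers found in the counts summed to 20966.1 CPM in the library labelled mutant and 21882.3 CPM in that labelled wild type, with 1 of the 4 higher. In this gate the 5 markers of cycling cells summed to 50.8 (mutant) and 114 (wild type) CPM, with none of them higher and none at 0. The 4 xanthophore markers summed to 50.5 (mutant) and 8.82 (wild type) CPM, with all 4 higher. The 5 periderm markers summed to 28.7 (mutant) and 87.6 (wild type) CPM, with 1 higher. The part of these markers in the ratios was not tested.

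Radial glia held large differences in both directions. Of 21 genes counted, 9 were above 1.2 and 4 below 0.8, against 20.3% and 11.4% of all genes, and the median log2 ratio was 0.03 against 0.01. The genes above were led by *slc3a2b*, *slc1a5*, *slc1a4*, *slc7a3a* and *slc7a5*, with log2 ratios of 1.48 to 2.08, and the genes below were *slc38a4*, *slc7a8a*, *slc7a2* and *slc7a10b*, with log2 ratios of -1.75 to -0.70. Each of these 9 intervals excluded 0. *slc1a5* reached 10 CPM in the library labelled mutant alone and had to be higher there to be counted. Of the 20 genes at 10 CPM in both libraries, 8 were above 1.2 and 4 below 0.8, and the share of all genes under this filter was not computed. The radial glia markers summed to 41241.8 CPM in the library labelled mutant and 40323.6 CPM in that labelled wild type, while the 5 markers of cycling cells summed to 521 (mutant) and 827 (wild type) CPM in this gate, with all 5 lower in the library labelled mutant and none at 0. The part of this in the ratios was not tested.

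In the pan-neuronal gate, the largest with 4440 (mutant) and 6418 (wild type) cells, 9 of 19 genes were above 1.2 and 0 below 0.8, against 14.7% and 4.52% of all genes, and the median log2 ratio was 0.25 against 0.08. Of the 18 at 10 CPM in both libraries, 8 were above 1.2 and 0 below 0.8. *slc1a4* had 154 (mutant) and 61.8 (wild type) CPM, *slc3a2b* 271 (mutant) and 170 (wild type) CPM, and *slc7a5* 89.2 (mutant) and 48.1 (wild type) CPM. In iridophores, 14 of 20 genes were above 1.2 and 2 below 0.8, against 31.6% and 19% of all genes, with a median of 0.61 against 0.06. Of these 20 genes, 4 reached 10 CPM in the library labelled mutant alone and 1 in that labelled wild type alone. Of the 15 at 10 CPM in both libraries, 10 were above 1.2 and 1 below 0.8. Among the cells with markers of proliferation, a state that was gated apart from the types, 15 of 24 genes were above 1.2 and 2 below 0.8, against 28.2% and 6.95% of all genes, with a median of 0.46 against 0.10. Of these 24 genes, 4 reached 10 CPM in the library labelled mutant alone. Of the 20 at 10 CPM in both libraries, 12 were above 1.2 and 2 below 0.8. For the pan-neuronal, iridophore and cycling gates, too, the share of all genes at 10 CPM in both libraries was not computed. In these cells *slc1a4* had 210 CPM in the library labelled mutant and 30.7 CPM in that labelled wild type (log2 ratio 2.78, interval 2.65 to 2.91).

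In a few types the share of genes above 1.2 was near that of all genes. In macrophages and microglia 6 of 18 genes were above 1.2 and 3 below 0.8, against 31.2% and 18.5% of all genes, and in endothelium 8 of 19 were above and 3 below, against 33.7% and 18.4%. In melanophores 6 of 17 were above and 3 below, against 33.4% and 21.8%, and the median log2 ratio was -0.02 against 0.07. In erythrocytes 4 of 15 were above 1.2 and 6 below 0.8, against 28.5% and 31.6% of all genes, and the median log2 ratio was -0.26 against -0.06. These 4 gates held between 66 and 205 cells in a library. In the endothelium gate the 5 cycling markers summed to 288 (mutant) and 668 (wild type) CPM, with all 5 lower in the library labelled mutant and none at 0, and their part in the ratios was not tested. In the erythrocyte gate, the 5 markers of cranial mesenchyme and fibroblasts summed to 140 (mutant) and 61.8 (wild type) CPM, with 4 higher in the library labelled mutant and none at 0. Markers of neural types were also found there. Those of radial glia summed to 745 (mutant) and 844 (wild type) CPM and pan-neuronal markers to 495 (mutant) and 424 (wild type) CPM. Retinal bipolar markers summed to 115 (mutant) and 193 (wild type) CPM and amacrine markers to 13.8 (mutant) and 113 (wild type) CPM. The part of any of these lists in the ratios was not tested. *slc38a2* was lower in erythrocytes of the library labelled mutant, with 7 UMIs against 28 UMIs in wild type (log2 ratio -1.47, interval -2.91 to -0.24).

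Related genes outside the set were compared in 3 lists. Of 27 other amino acid carriers at 1 CPM or more, 11 were above 1.2 and 1 below 0.8, with a median log2 ratio of 0.12. Those farthest from 0 were *slc6a15*, a sodium-dependent carrier of branched-chain amino acids, with 90 CPM in the library labelled mutant and 32.9 CPM in that labelled wild type (log2 ratio 1.45), *slc16a10*, an aromatic amino acid carrier, with 14.7 (mutant) and 8.07 (wild type) CPM (0.87), and *slc6a17*, a vesicular carrier, with 21.5 (mutant) and 12.5 (wild type) CPM (0.79). Of 17 factors and enzymes of the integrated stress response, 15 were above 1.2 and 0 below 0.8, with a median of 0.98. *atf5b*, a transcription factor of this response, had 97.7 (mutant) and 11.9 (wild type) CPM (log2 ratio 3.04), *sesn2*, a leucine sensor upstream of mTORC1, 40.9 (mutant) and 8.14 (wild type) CPM (2.33), and *asns*, asparagine synthetase, 33.8 (mutant) and 9.60 (wild type) CPM (1.82). Of 29 genes of lysosomal amino acid sensing by mTORC1, 4 were above 1.2 and 0 below 0.8, with a median of 0.07, and the largest log2 ratios were those of *tsc1a* (0.35), *sesn3* (0.32) and *sesn1* (0.29). *sesn2*, which also acts in this sensing, was placed in the stress response list and is not among the 29. The share of all genes above 1.2 was 20.5%, as given above.

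The make-up of the 2 cell samples differed, so the comparison over all cells was repeated with the wild-type shares of the gated types applied to both libraries. These were shares of UMIs, not of cells, and the cells outside any single gate were kept as a class of their own. *slc1a4* then had 152 CPM in the library labelled mutant and 38.9 CPM in that labelled wild type, a log2 ratio of 1.97, and the log2 ratios of *slc3a2b*, *slc7a3a* and *slc7a5* were 1.21, 1.21 and 1.2. Some genes that are high in chondrocytes, radial glia or macrophages came closer to 0. The log2 ratio was 0.53 for *slc7a7*, 0.51 for *slc7a10a* and 0.43 for *slc7a1*, against 0.77, 0.64 and 0.61 in the pooled cells. Of 38 genes at 1 CPM or more, 19 were then above 1.2 and 2 below 0.8, and of all genes 17.3% were above 1.2.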

How the data were processed

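Single-cell RNA-sequencing of whole heads of zebrafish at 3 dpf was analysed, 1 library per genotype from 10 pooled heads each. The authors made the libraries with the Chromium GEM-X 3′ kit and counted UMIs with Cell Ranger, version 8.0.0 per the file headers (the methods name another version); the submitters' notes name the genome build GRCz11. What was deposited are UMI counts of each gene in each called barcode, neither normalized nor filtered by the authors. The strand setting of the counting is not given in the sources used here, and values of genes that overlap others are uncertain to that extent.

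Cells with 500 to 20000 UMIs, 500 to 5000 genes, a novelty score of 0.8 or more and no more than 20% mitochondrial UMIs were kept (26454 mutant and 36996 wild-type cells), as in the study's methods. Instead of scDblFinder, a neighbour score on artificial doublets (2 per cell, 2000 variable genes, 30 components) removed 0.4% of cells per 1000 barcodes, 3410 cells labelled mutant and 6454 labelled wild type. The score was weak: on simulated data, 42.7% (mutant) and 39.7% (wild type) of 300 known doublets stood among the 900 highest. UMIs of the kept cells came to 111024853 (mutant) and 128382492 (wild type). Gates used 199 of 202 markers written for 42 types and 1 state, needed at least 3 markers detected and 10 marker UMIs per 10000, and were set from marker detection after the files had been opened. Cells in several gates, 1013 (mutant) and 1115 (wild type), were left out. Genes named are those with a mean of at least 10 CPM over all cells or 50 CPM in a gate, and of each list the 3 farthest from 0 at 10 CPM or more. Ratios carry conditional binomial, levels Poisson and shares Clopper-Pearson intervals at 95%, for counting error only. The interval calculation was tested on simulated data. Reads were not analysed, and the study's Wilcoxon test over cells was left out, because cells from the same library do not replicate a condition. Alternatives changed the cell filter, doublet removal, scaling, cell make-up, log scale, level and fold limits, and gates.

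The genes and lists were chosen with earlier results of these data known. Of 43 symbols, 42 matched RefSeq (GRCz12tu), and for *slc7a1* it is unclear which of 2 annotated copies is meant. Promoter sequences were not analysed here. Matplotlib 3.10.9 drew the figures; scikit-learn 1.9.0, pandas 2.3.3, scipy 1.17.1 and numpy 2.4.6 ran under Python 3.11.15.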

Additional observations from a re-analysis of the deposited data

Results flagged for a closer look

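In 7 genes the ratio was above 1.2 in one cell type and below 0.8 in another, with both counting intervals apart from 0. The difference between the types was not tested, since each has 1 library per genotype, and each pair of types is the one with intervals farthest from 0. Values are log2 ratios of mutant over wild type. Some values passed the level of 10 CPM through 1 library alone and had to differ in that direction to be counted. These were *slc7a5* in skeletal muscle, *slc7a2* in basal epidermis and *slc1a5* in radial glia, through the library labelled mutant. *slc43a2a* in periderm passed through that labelled wild type.

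*slc7a5* had 3.51 in skeletal muscle and -1.03 in erythrocytes, 4.54 apart. In erythrocytes the share of cells with an *slc7a5* UMI was similar, 11.7% (mutant) and 11.2% (wild type) without thinning. *slc38a2* had 1.84 in skeletal muscle and -1.47 in erythrocytes, 3.31 apart. Markers of other types were found in both of these gates, as given above, and their part in the ratios was not tested. *slc7a2* had 1.69 in basal epidermis and -1.12 in radial glia, 2.81 apart. *slc1a5* had 2.02 in radial glia and -0.48 in cones, 2.50 apart. *slc43a2a* had 1.13 in radial glia and -1.15 in periderm, 2.29 apart. *slc43a3b* had 0.36 in periderm and -0.81 in chondrocytes, 1.17 apart. *slc36a1* had 0.38 in periderm and -0.51 in cranial mesenchyme and fibroblasts, 0.89 apart.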

How the results depend on the processing

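The count of 21 genes above 1.2 over all cells was 16 in all deposited barcodes, 20 without removal of doublets, 17 with median-of-ratios scaling, 19 with wild-type shares of the gated types and 15 at a mean of at least 10 CPM. As a share of the genes at the level, 41.0%, 50%, 43.6% and 50% were above 1.2 in the first 4 of these settings, against 16%, 17.9%, 14.2% and 17.3% of all genes. It was 12 at a fold of 1.5 and 4 with 1 added to the mean per 10000 UMIs, a scale that shrinks low genes by construction and on which 0.838% of all genes were above 1.2. The count of 2 genes below 0.8 was 0 without removal of doublets, 0 with 1 added per 10000 UMIs, 0 at a fold of 1.5 and 1 among genes at 10 CPM or more. The median log2 ratio, 0.28, was 0.21 with median-of-ratios scaling, where all genes had a median of 0.01, and 0.03 with 1 added per 10000 UMIs, where all genes had 0.01. It lay between 0.24 and 0.31 in the other 5 settings. Among the 32 named genes, those past a fold did not change direction when barcodes, doublets, scaling, cell make-up or the log scale was changed. The ratio moved out of its counting interval for 14, 6, 17, 10 and 24 of the 32 in these settings, in that order. Genes between the folds could change sign. *slc38a10* went from 0.09 to -0.01 with wild-type shares of the gated types, and *slc38a3a* from 0.05 to -0.02 with median-of-ratios scaling. Within cell types, the share of pairs above 1.2 was 46.0% to 50.5% with stricter or looser gates, gates on cells thinned to 1000 UMIs and no removal of doublets, and the median 0.21 to 0.27. Neither these gate settings nor the count at a mean of at least 10 CPM have a share of all genes beside them. No paired analysis was possible because there is 1 library per genotype. Gates of fewer than 200 cells give wide intervals, and differences below about the width of an interval were not detectable at this depth.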
